A study of Mus musculus with 8 samples.

Results

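The genes of mTOR complex 1 (mTORC1), mTOR complex 2 (mTORC2) and the tuberous sclerosis complex (TSC) were followed in sorted mouse regulatory T cells with and without a T cell deletion of Rptor, the gene of the mTORC1 scaffold Raptor. The members are Rptor, Akt1s1, Mtor, Mlst8, Rictor, Mapkap1, Tsc1, Tsc2, Tbc1d7 and Rheb. They were found by symbol, and every probe set that lists 1 of them and no other gene was read singly. Of the 10 genes, 8 had such probe sets, 20 in all, out of 28898 single-gene probe sets for 17097 genes on the array. Akt1s1, which encodes the mTORC1 inhibitor PRAS40, is named on no probe set of the annotation, and Tsc2 is named on 1 that lists a second gene as well, so neither is given a value. Rptor also appears on 1 further probe set shared with its antisense gene, which was not used.

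The arrays compare CD4+CD25+ cells from spleen and peripheral lymph nodes of 4 wild-type samples (WT) and of 4 CD4(cre)Raptor(fl/fl) samples (RaptorKO below), all on the C57Bl/6J background and taken straight after sorting. In the RaptorKO mice a Cre recombinase under Cd4 control removes the floxed gene in the T cell lineage, so conventional T cells in these mice are targeted along with regulatory T cells. The labels give no age or sex, do not say whether the WT mice carried Cre or a floxed allele, and do not tie the samples to separate animals. The p-values thus reflect only how far these samples differ from one another, and part of that may be technical.

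mTOR is a serine/threonine kinase that works in a pair of complexes. With Raptor and the small subunit mLST8 (Mlst8) it forms mTORC1, which promotes protein and lipid synthesis when nutrients and growth signals are present. With Rictor, SIN1 (Mapkap1) and mLST8 it forms mTORC2, which phosphorylates AKT and related kinases. The TSC complex of TSC1, TSC2 and TBC1D7 inactivates the GTPase RHEB, the direct activator of mTORC1, so TSC restrains mTORC1. In regulatory T cells, antigen receptor and IL-2 signals engage mTORC1, and the series title names immune signals and metabolic programming through mTORC1 as its subject.

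Values are log2 intensities from the robust multi-array average (RMA), so a difference of 1 is a doubling. Different probe sets cannot be ranked against each other in level. Array medians ran from 5.21 to 5.29. The cells carried the markers of the label, with Foxp3 ranging over 10.79 to 10.96 (WT) and 10.96 to 11.04 (RaptorKO). All 5 regulatory T cell markers lay above the filter on every array, but so did Cd8a and Cd8b1. Of the 5, read on the brightest probe set of each, 4 had a higher mean in RaptorKO. For Il2ra the difference was 0.030 on that probe set and -0.19 on its other one. Ctla4 was lower in RaptorKO, at 9.49 to 9.75 against 9.85 to 10.05 in WT, without overlap. Ikzf2 was higher, at 10.41 to 10.57 against 10.24 to 10.36 in WT, also without overlap on its brightest probe set. Mean levels of markers of other cells ran over different ranges in the genotypes. The mean of 8 myeloid markers ran from 4.91 to 5.44 in WT and from 5.30 to 5.83 in RaptorKO, with 7 of the 8 higher in mean in RaptorKO and Adgre1, Cd14 and Itgam below the filter on at least 1 array. The mean of the CD8 genes Cd8a and Cd8b1 ran from 6.32 to 8.07 in WT and from 6.08 to 7.03 in RaptorKO. B cell markers averaged 5.10 to 6.77 in WT and 5.92 to 6.39 in RaptorKO, with 2 of 3 above the filter on all 8 arrays. NK cell markers averaged 4.30 to 5.18 and 4.34 to 4.63, with 0 of 3 above it on all 8 arrays. Red cell genes averaged 6.04 to 7.17 and 6.84 to 7.25. Of these, Hba-a1 had a mean of 7.59 in WT and 8.70 in RaptorKO, and Alas2 of 5.48 and 5.40. Markers of all T cells were at 10.67 to 10.87 in WT and 10.49 to 10.61 in RaptorKO. None of these marker genes was called, and their part in the results below was not tested. Xist was at 10.88 to 11.18 in replicates 1 and 2 of both genotypes and at 5.04 to 5.62 in replicates 3 and 4, so sex-linked transcripts divide the arrays into these sets, each with 2 arrays per genotype. The array RaptorKO 2 stood apart on the leading principal component, which held 28.1% of the variance, and had the lowest array weight, 0.45. In bulk RNA, fewer cells of a type and less RNA per cell cannot be told apart.

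No member probe set was called in the comparison of RaptorKO with WT. A probe set was tested if it lay above the 40th percentile of its array on at least 4 arrays, and it was called when limma gave an adjusted p (Benjamini-Hochberg, over all 27343 probe sets tested) under 0.05. The filter passed 19 of the 20 member probe sets, 18 of them above it on all 8 arrays, and 0 of 19 were called, against 1.11% of all probe sets tested (304 of 27343). At an unadjusted p under 0.05 there were 2 of 19 members, or 10.5%, against 11.6% of all probe sets. The WT and RaptorKO values did not overlap for the same number, 2 of 19, against 8.07% of all probe sets. These shares are near the background. The pair of probe sets was the same by both measures, 1 for Rptor and 1 for Tsc1, and no other member differed by as much as 0.30.

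Rptor, the deleted gene, had a lower mean in RaptorKO on both of its probe sets, but neither passed the test. On 1434619_PM_at WT 1 to 4 read 5.92, 5.89, 6.14 and 5.98, against 5.37, 5.56, 5.74 and 5.58 on RaptorKO 1 to 4. Every RaptorKO array was below every WT array. The means were 5.98 ± 0.11 (SD, n = 4) and 5.56 ± 0.15, a difference of -0.42 (SE 0.11, 95% interval -0.66 to -0.18, adjusted p = 0.120), or 1.34-fold lower. On the brighter 1430784_PM_a_at the values were 6.83, 6.85, 7.03 and 6.75 in WT and 6.63, 6.47, 6.50 and 6.95 in RaptorKO. RaptorKO 4 lay within the WT range there, and the other three were below it. That difference was -0.23 (SE 0.13, 95% interval -0.50 to 0.05, adjusted p = 0.550), and with single arrays left out it ran from -0.33 (without RaptorKO 4, adjusted p = 0.298) to -0.17 (without RaptorKO 2, adjusted p = 0.614, or WT 3, adjusted p = 0.813). The sources used here do not place the probe sets inside or outside the floxed stretch, so the genotype labels are not checked by these values.

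**Figure D1:**
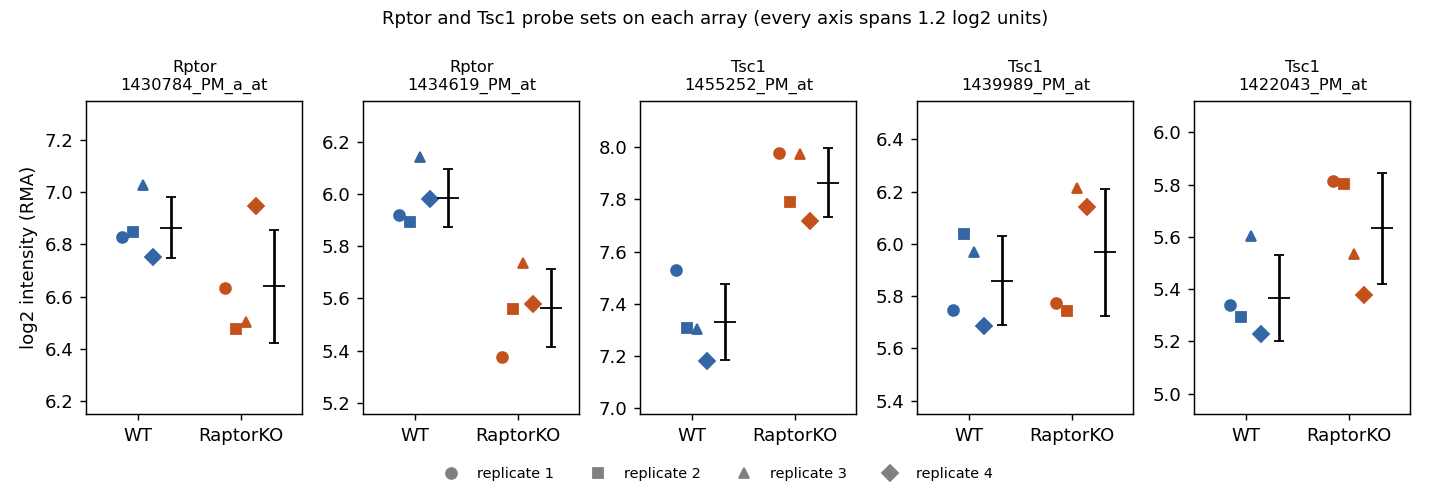
Log2 intensity (vertical axis, 1.2 log2 units in every panel) of the 2 Rptor and 3 Tsc1 probe sets on each WT (blue) and RaptorKO (orange) array; symbols mark replicates, and bars give the mean and SD of 4 arrays. The groups separate on Rptor 1434619_PM_at, with RaptorKO at 5.37 to 5.74 below WT at 5.89 to 6.14, and on Tsc1 1455252_PM_at, with RaptorKO at 7.72 to 7.98 above WT at 7.18 to 7.53, and overlap on the other panels.

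The subunits that both complexes share overlapped between genotypes on all 5 of their probe sets. Mtor, the kinase itself, had 3 probe sets, all with a lower mean in RaptorKO. The brightest, 1417592_PM_at, read 8.09, 7.93, 7.81 and 7.93 in WT and 7.62, 8.17, 7.61 and 7.63 in RaptorKO. RaptorKO 1, 3 and 4 lay below every WT array and RaptorKO 2 lay above every one. The difference was -0.18 (SE 0.14, 95% interval -0.49 to 0.12, adjusted p = 0.707), and without RaptorKO 2 it was -0.32 (limma adjusted p = 0.188), which did not pass either. On 1436267_PM_a_at the ranges were 6.52 to 6.96 in WT and 6.42 to 6.89 in RaptorKO (difference -0.12, SE 0.13). On the dim 1446185_PM_at, above the filter on 4 arrays, they were 4.71 to 5.08 and 4.33 to 4.95 (difference -0.14, SE 0.15). Leaving out RaptorKO 2 made the differences on these other Mtor probe sets smaller in size, at -0.051 on 1436267_PM_a_at and -0.0089 on 1446185_PM_at.

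Mlst8, the WD-repeat subunit that stabilises the kinase domain, showed no shared direction on its 2 probe sets. On 1415842_PM_at WT ran from 5.76 to 5.94 and RaptorKO from 5.85 to 6.06, a difference of 0.089 (SE 0.098). On 1415843_PM_at WT ran from 5.34 to 5.74 and RaptorKO from 5.21 to 5.82, a difference of -0.042 (SE 0.15). The ranges overlapped on both.

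The subunits particular to mTORC2 overlapped between genotypes on all 7 of their probe sets. Rictor, its scaffold and the counterpart of Raptor, had 5 probe sets, 4 with a positive and 1 with a negative difference, from -0.047 to 0.16. On the brightest, 1453775_PM_at, the values were 7.11, 7.28, 7.47 and 7.27 in WT and 7.68, 7.66, 7.28 and 7.17 in RaptorKO. RaptorKO 1 and 2 were above every WT array there, and RaptorKO 3 and 4 were within the WT range, for a difference of 0.16 (SE 0.14, 95% interval -0.15 to 0.47, adjusted p = 0.753). On 1429810_PM_at the values were 6.62, 6.45, 6.67 and 7.08 in WT and 6.31, 6.41, 7.17 and 7.08 in RaptorKO, with RaptorKO 3, RaptorKO 4 and WT 4 above the other arrays. Its difference, 0.039 (SE 0.21), had the widest interval of the members, -0.42 to 0.50. The shortest interval of all 19 members, from -0.13 to 0.30, belonged to Mlst8 1415842_PM_at.

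Mapkap1 encodes SIN1, the subunit that presents substrates such as AKT to mTORC2. On 1427212_PM_at the values were 7.20, 6.80, 7.31 and 7.31 in WT and 7.04, 7.18, 7.02 and 7.08 in RaptorKO, so WT 2 was lowest and the RaptorKO arrays fell between it and the other WT arrays. That difference was -0.077 (SE 0.13, adjusted p = 0.896). On 1417284_PM_at WT ran from 6.19 to 6.51 and RaptorKO from 6.12 to 7.12, with RaptorKO 2 at 7.12 and the other RaptorKO arrays at 6.12, 6.53 and 6.33. The difference there was 0.17 (SE 0.19), and -0.029 without RaptorKO 2.

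**Figure D2:**
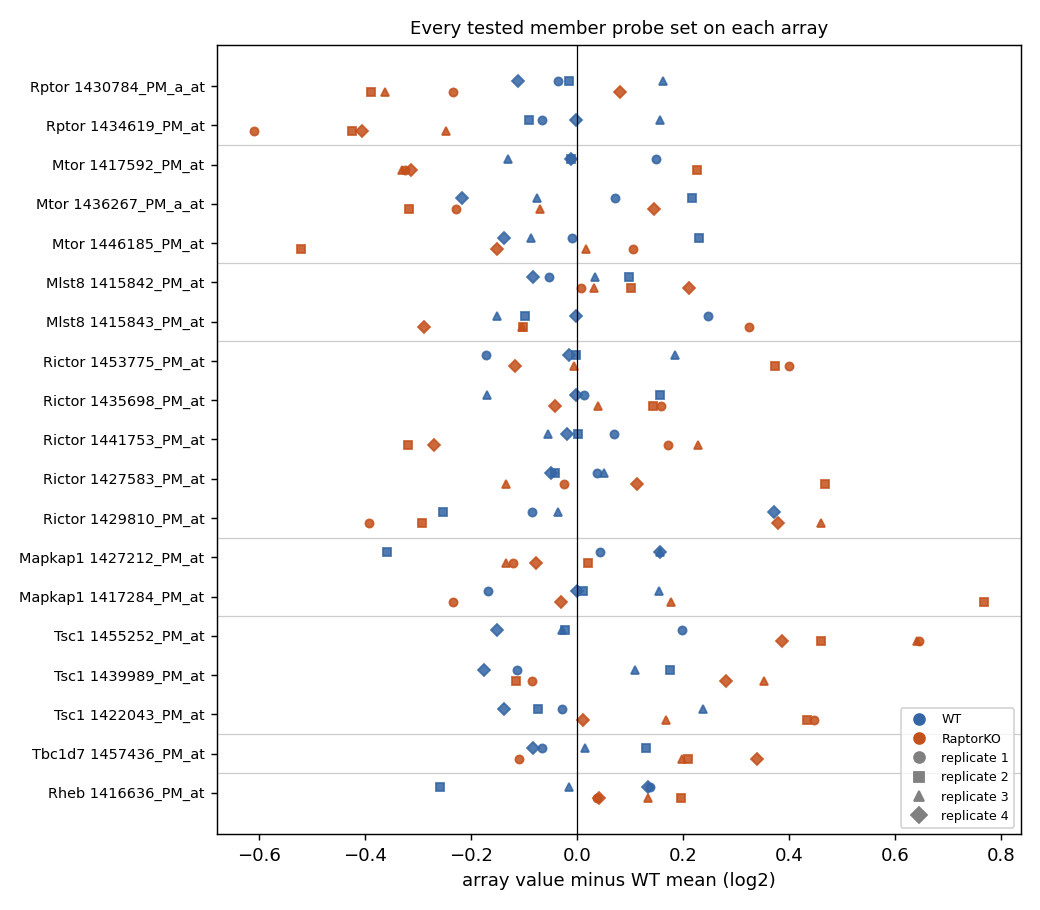
Each tested member probe set on each array, as the log2 value minus the WT mean of that probe set (horizontal axis); WT in blue, RaptorKO in orange, symbols for replicates. The colours separate for Rptor 1434619_PM_at and Tsc1 1455252_PM_at and mix for the other 17, and the single largest distance is RaptorKO 2 on Mapkap1 1417284_PM_at, at 7.12 against a WT mean of 6.35.

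Tsc1 had the largest difference of the members. It encodes hamartin, which stabilises TSC2 in the complex that restrains mTORC1. On its brightest probe set, 1455252_PM_at, the values were 7.53, 7.31, 7.30 and 7.18 in WT and 7.98, 7.79, 7.97 and 7.72 in RaptorKO. Every RaptorKO array was above every WT array. The means were 7.33 ± 0.15 (SD, n = 4) and 7.86 ± 0.13, a difference of 0.53 (SE 0.11, 95% interval 0.28 to 0.78), or 1.45-fold, with an adjusted p = 0.0537 that narrowly missed the threshold. A difference at least that large in either direction was found in 2.88% of all probe sets tested. When each gene was represented by its brightest probe set, which tests 11413 genes and calls 1.96% of them, the same values gave a limma adjusted p = 0.0307, and Tsc1 was called. The call also came with a 60th percentile filter (adjusted p = 0.0356), an intensity trend (adjusted p = 0.0313), array weights (adjusted p = 0.0453) and a term for the replicate sets (adjusted p = 0.0495), so it was made in 5 of 20 alternatives. With any single array left out it was not made, with differences from 0.48 to 0.60 and adjusted p from 0.0609 to 0.172.

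The other Tsc1 probe sets overlapped between genotypes. On 1422043_PM_at WT ran from 5.23 to 5.60 and RaptorKO from 5.38 to 5.81, a difference of 0.27 (SE 0.13, adjusted p = 0.482). On 1439989_PM_at the ranges were 5.69 to 6.04 and 5.75 to 6.21, a difference of 0.11 (SE 0.14, adjusted p = 0.858). All 3 differences were positive, and the mean of the 3 probe sets differed by 0.30 (limma over gene means, adjusted p = 0.120).

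Tbc1d7 encodes the third TSC subunit, which supports the association of the other two. On 1457436_PM_at the values were 6.50, 6.69, 6.58 and 6.48 in WT and 6.45, 6.77, 6.76 and 6.90 in RaptorKO. RaptorKO 1 was the lowest of all 8 arrays and the other RaptorKO arrays were the highest, for a difference of 0.16 (SE 0.12, 95% interval -0.10 to 0.42, adjusted p = 0.692). The second Tbc1d7 probe set, 1428598_PM_at, is the member that the filter removed, with values of 4.20 to 4.82 in WT and 4.52 to 4.99 in RaptorKO.

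Rheb, the GTPase that TSC inactivates, had 1 probe set, 1416636_PM_at. It read 7.21, 6.82, 7.06 and 7.21 in WT and 7.12, 7.27, 7.21 and 7.12 in RaptorKO. The RaptorKO arrays were close together, WT 2 was the lowest array, and the difference was 0.10 (SE 0.11, 95% interval -0.15 to 0.35, adjusted p = 0.828).

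**Figure D3:**
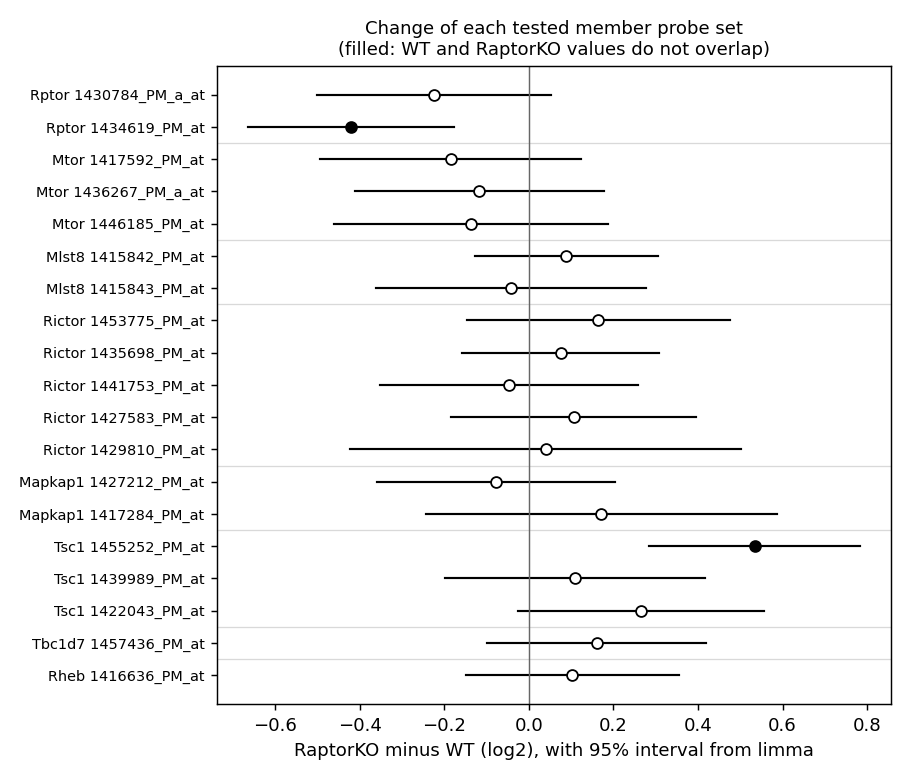
RaptorKO minus WT (log2, horizontal axis) for the 19 tested member probe sets, with the 95% interval of the limma fit; filled points have WT and RaptorKO values that do not overlap. The intervals of 17 probe sets include 0, and those of Rptor 1434619_PM_at (-0.66 to -0.18) and Tsc1 1455252_PM_at (0.28 to 0.78) do not, before any adjustment for the number of tests.

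By complex, both Rptor probe sets had negative differences (median -0.32), the shared subunits had 4 negative and 1 positive (median -0.12), the mTORC2 subunits had 2 negative and 5 positive (median 0.075), and the 4 tested TSC probe sets were all positive (median 0.21). Over the 19 members the median was 0.075 and the median size without sign was 0.12, beside -0.012 and 0.11 over all probe sets tested. The number of probe sets differs between the complexes and several share a gene, so these medians are a description. In 15 of the 19 members the RaptorKO arrays had the larger SD, which also held for 66.3% of all probe sets tested. The 95% intervals of the members had a median length of 0.58 from end to end, between 0.43 and 0.92.

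Probe sets of one gene can read different transcript forms, so their changes were compared within each array. For 11 pairs, the gap between the brightest probe set of a gene and another that passed the filter was compared between genotypes with a two-sided exact permutation test. The smallest p that 4 arrays against 4 allow is 0.0286. None of the 11 pairs reached it. The largest shift was in Tsc1, where the gap between 1455252_PM_at and 1439989_PM_at was 1.47 ± 0.23 (SD) in WT and 1.90 ± 0.28 in RaptorKO, 0.42 wider (exact p = 0.0857, adjusted over the 11 pairs 0.786). For Rptor the gap was 0.88 ± 0.079 in WT and 1.08 ± 0.28 in RaptorKO (exact p = 0.314, adjusted 0.849). The larger change on one Tsc1 or Rptor probe set than on another was thus not resolved by these arrays.

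Replicates 1 and 2, with high Xist, and replicates 3 and 4 gave the same direction for 9 of the 19 members. Rptor 1434619_PM_at differed by -0.44 in the former set and -0.40 in the latter, and Tsc1 1455252_PM_at by 0.46 and 0.60. Rictor 1453775_PM_at differed by 0.47 and -0.15, and Mtor 1436267_PM_a_at by -0.42 and 0.18. These were the 2 members whose difference between the sets had an unadjusted limma interaction p under 0.05, with adjusted p = 0.382 and adjusted p = 0.393. No member passed the interaction test after adjustment over all probe sets.

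**Figure D4:**
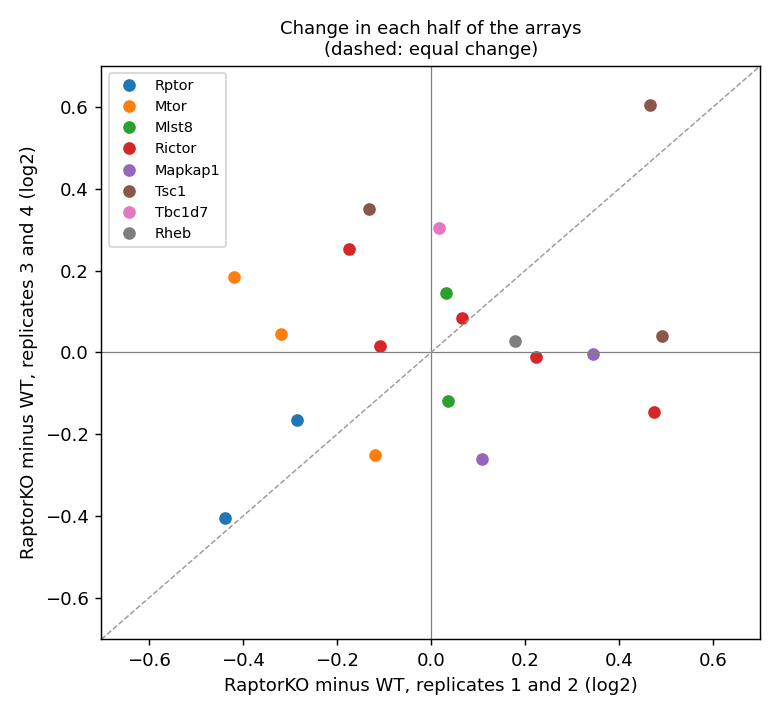
RaptorKO minus WT (log2) in replicates 1 and 2 (horizontal axis) against replicates 3 and 4 (vertical axis), 1 point per tested member probe set and 2 arrays per genotype behind each value; the dashed line marks equal change. Both Rptor points lie in the lower left and Tsc1 1455252_PM_at lies in the upper right at 0.46 and 0.60. Rictor points lie on both sides of 0 on each axis, and Mtor points do so on the vertical axis only.

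The promoters of the members were read to show what sequence stands before these genes. RefSeq windows on GRCm38.p6, from 250 bases before to 50 bases after a transcript start, were held for all 10 genes (11 windows, 2 overlapping ones for Mapkap1). They were searched on both strands for CACGTG, the E-box read by MYC and by the TFE factors that mTORC1 controls, for GTAAACA, a forkhead (FOXO) site, for TGACGTCA, a CRE and ATF site, and for CCGGAAG, an ETS site. Shown in lower case with any match in capitals are Tsc1 and Rptor, the genes with 1 probe set each on which the genotypes did not overlap, and Rheb and Tbc1d7, the members with a CACGTG. The windows are chr2:28640983-28641282 (plus strand) for Tsc1, chr11:119602655-119602954 (plus strand) for Rptor, chr5:24842312-24842611 (minus strand) for Rheb and chr13:43171452-43171751 (minus strand) for Tbc1d7.
Tsc1: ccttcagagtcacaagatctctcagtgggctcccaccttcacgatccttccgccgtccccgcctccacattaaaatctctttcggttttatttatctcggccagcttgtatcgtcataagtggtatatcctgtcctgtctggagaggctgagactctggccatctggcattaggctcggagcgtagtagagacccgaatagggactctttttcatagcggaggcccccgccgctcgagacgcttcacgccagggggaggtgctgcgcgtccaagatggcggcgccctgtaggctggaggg
Rptor: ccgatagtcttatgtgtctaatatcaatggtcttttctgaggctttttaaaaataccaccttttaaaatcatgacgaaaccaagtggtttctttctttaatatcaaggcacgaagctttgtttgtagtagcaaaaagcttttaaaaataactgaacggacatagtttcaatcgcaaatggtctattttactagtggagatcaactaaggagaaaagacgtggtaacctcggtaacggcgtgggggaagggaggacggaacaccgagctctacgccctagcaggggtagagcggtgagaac
Rheb: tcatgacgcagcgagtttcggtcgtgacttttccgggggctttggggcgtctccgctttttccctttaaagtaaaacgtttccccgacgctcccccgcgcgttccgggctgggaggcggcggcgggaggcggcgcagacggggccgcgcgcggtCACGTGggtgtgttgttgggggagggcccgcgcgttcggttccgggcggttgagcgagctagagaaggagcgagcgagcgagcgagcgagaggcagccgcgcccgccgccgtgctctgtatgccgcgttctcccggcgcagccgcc
Tbc1d7: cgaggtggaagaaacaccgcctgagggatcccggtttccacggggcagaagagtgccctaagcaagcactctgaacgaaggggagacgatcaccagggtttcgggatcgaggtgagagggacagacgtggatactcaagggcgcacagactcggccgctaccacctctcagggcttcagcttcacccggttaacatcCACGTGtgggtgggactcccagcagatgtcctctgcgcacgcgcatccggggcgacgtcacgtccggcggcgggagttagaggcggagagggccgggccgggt

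The Tsc1 and Rptor windows held none of the 4 motifs. CACGTG began 96 bases before the start in Rheb and 53 bases before it in Tbc1d7, and 7.15% of all 32851 promoter windows hold it. Rheb (0.10) and Tbc1d7 (0.16) were not called, as given above. GTAAACA was found once in Mapkap1, in the stretch that its 2 windows share (3.65% of all windows), and TGACGTCA in no member (1.79%). CCGGAAG was found in Mtor, Akt1s1, Mapkap1 and Tsc2 (8.86%). A match is a description of the letters, and no match says only that these letters are not in the window.

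The surrounding pathway was read from 4 lists of genes, chosen with earlier results of these data known. Where the calls lie among the lists is therefore only described. Most of the called probe sets were in the list of amino acid sensors, which report nutrient supply to mTORC1 through the Rag GTPases. Of 39 tested probe sets for 22 genes in that list, 16 had a positive and 23 a negative difference, with a median of -0.036. In that list 3 were called higher and 3 lower in RaptorKO, against 1.11% called of all probe sets tested, and 17 had an unadjusted p under 0.05, against 11.6% of all. With only the brightest probe set of each gene, 1 was called. Rragd, a Rag GTPase, read 6.28 ± 0.20 (SD, n = 4) in WT and 7.82 ± 0.39 in RaptorKO on 1431164_PM_at, so that it rose by 1.54 (SE 0.18, limma adjusted p = 0.00295). On its other probe set, 1434909_PM_at, Rragd rose by 1.13 (SE 0.15, adjusted p = 0.00574). Fnip1, a partner of folliculin that acts on the Rag GTPases, rose by 0.74 on 1434405_PM_at (adjusted p = 0.0420), and its other tested probe sets, at 0.50 (adjusted p = 0.103) and 0.55 (adjusted p = 0.113), were not called. Sesn2, a leucine sensor that restrains mTORC1, read 6.42 ± 0.13 in WT and 5.20 ± 0.35 in RaptorKO on 1425139_PM_at and fell by 1.23 there (SE 0.16, adjusted p = 0.00623). The other Sesn2 probe set differed by -0.44 and was not called (adjusted p = 0.189). Sesn3, a relative of Sesn2, fell by 0.77 on 1449303_PM_at (adjusted p = 0.0144), with -0.47 on the other Sesn3 probe set (adjusted p = 0.105). Castor2, of the arginine-sensing CASTOR family, fell by 0.78 on 1443925_PM_at (adjusted p = 0.0283). The other 3 Castor2 probe sets differed by -0.83, -0.68 and -0.21 and were not called (adjusted p = 0.134, 0.171 and 0.699). The Fnip1 call held in 5 of 18 alternatives: it was lost with any single array left out, and also with a replicate block (adjusted p = 0.114), without a filter (adjusted p = 0.0552), with median centring (adjusted p = 0.0570) and in each replicate set alone. The Castor2 call was lost when any single array except RaptorKO 2 was left out (adjusted p from 0.0671 to 0.0919 in those fits). Sesn3 lost it without WT 1 (adjusted p = 0.0626).

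The other lists held 1 called probe set between them. The list of substrates and effectors, which covers both complexes, had 1 called of 38 tested probe sets for 19 genes. This was a probe set of Eef2k, which encodes the kinase of elongation factor eEF2. Eef2k rose by 0.90 on 1437829_PM_s_at (SE 0.13, limma adjusted p = 0.00866). Its other probe sets differed by 0.46 (adjusted p = 0.235) and 0.27 (adjusted p = 0.428), and the mean over its probe sets by 0.54. The Eef2k call held in 18 of 20 alternatives. It was lost in replicates 1 and 2 alone (adjusted p = 0.173) and in replicates 3 and 4 alone (adjusted p = 0.104). In that list 6 had an unadjusted p under 0.05, against 11.6% of all probe sets, and the median was 0.029. Kinases and phosphatases upstream of TSC and RHEB had 0 called of 37 in limma, with 7 at an unadjusted p under 0.05, against 11.6% of all probe sets, and a median of -0.052. With a replicate block, quantile normalization or the replicate set term, 1 of them was called. Accessory subunits and assembly factors of the complexes had 0 called of 16 in limma and a median of 0.058. Among these 1 had an unadjusted p under 0.05, against 11.6% of all probe sets. That one, named after its value was seen, was Rhebl1, a relative of Rheb, at 5.20 ± 0.34 in WT and 5.71 ± 0.27 in RaptorKO. Its groups overlapped (limma adjusted p = 0.263), and the other Rhebl1 probe set differed by 0.40 (adjusted p = 0.604). The lists were chosen with earlier results of these data known, and no test of a list as a whole was made.

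**Figure D5:**
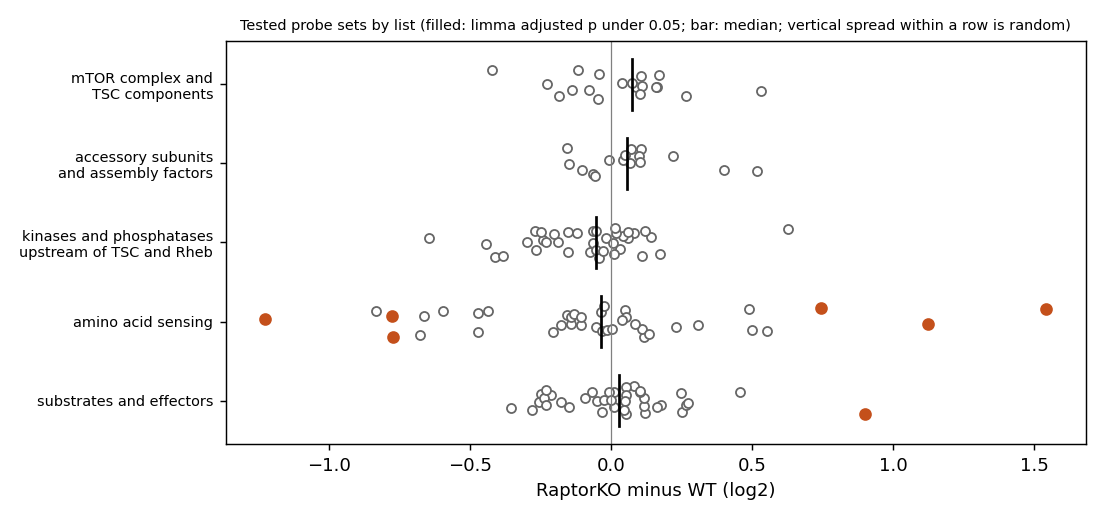
RaptorKO minus WT (log2, horizontal axis) for every tested probe set of the mTOR complex and TSC genes and of the 4 surrounding lists, 1 row each; filled points were called in limma and bars mark medians. The 19 members lie between -0.42 and 0.53 with 0 called, while amino acid sensing runs from -1.23 to 1.54 with 6 called.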

How the data were processed

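The authors deposited 1 log2 intensity per probe set and array, made with RMA, per the submitters' processing notes; its version, annotation and build are not given in the sources used here. RMA as usually run normalizes between arrays, which removes differences in total signal, and no further normalization was applied. Of 45141 probe sets, 104 array controls were left out of the tests. Genes came from the platform's annotation, updated by Entrez identifier to RefSeq symbols (28689 of 28898 single-gene probe sets matched; 551 listed several genes and 15692 none). Differences are RaptorKO minus WT, from lmFit and eBayes of limma 3.58.1 (R 4.3.3) with 4 arrays against 4 and no covariates, fitted to every probe set that passed the filter. The number of arrays limits the precision. The members, lists, alternatives and the rule for named genes (all members, and up to 6 called probe sets of each list by smallest p) were chosen with earlier results of these data known. Intervals are unadjusted. Plots used matplotlib 3.10.9 (Python 3.11.15).

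The alternatives were a replicate block, 1 probe set or the mean per gene, other filters, quantile normalization, median centring, an intensity trend, array weights, each array left out, a term for the replicate sets and each set alone.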

Additional observations from a re-analysis of the deposited data

Results flagged for a closer look

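In 40 groups of 4 arrays, 2 arrays lay far from the others of their group by Dixon's criterion at its 95% critical value, which chance gives in about 1 group in 20. On Mtor 1417592_PM_at RaptorKO 2 read 8.17, with the other RaptorKO arrays between 7.61 and 7.63. On the dim Tbc1d7 1428598_PM_at, which was not tested, RaptorKO 2 read 4.99 and the others 4.52 to 4.58. RaptorKO 2 is also the array that stood apart over all probe sets; its part in these values was not tested.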

How the results depend on the processing

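The count of called members was 0 in the main analysis, with any single array left out, and under every alternative but 5, namely the brightest probe set per gene, the 60th percentile filter, the intensity trend, array weights and the replicate set term, each with 1 (Tsc1 1455252_PM_at). The count of all called probe sets was 304, and 200 with a replicate block, 598 with an intensity trend, 8 in replicates 1 and 2 alone and 51 in replicates 3 and 4 alone, where fewer arrays were fitted. Leaving out single arrays gave 103 to 336, namely 104, 179, 119 and 103 when WT 1, 2, 3 or 4 was left out and 193 and 148 when RaptorKO 1 or RaptorKO 4 was.

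Same-numbered arrays did not deviate together in every pair (correlations of 0.16, -0.16, 0.060 and 0.045), so the numbers were not taken to pair the samples. With the replicate number as a block Fnip1 1434405_PM_at was not called (0.74, adjusted p = 0.114), Tsc1 1455252_PM_at had an adjusted p = 0.0987 and Rptor 1434619_PM_at one of 0.194.

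Of 350 recomputed member differences, 19 changed sign, none of them called. In replicates 1 and 2 alone these were Mapkap1 1427212_PM_at (0.11), Mlst8 1415843_PM_at (0.036), Rictor 1429810_PM_at (-0.17) and Tsc1 1439989_PM_at (-0.13). In replicates 3 and 4 alone they were Mapkap1 1417284_PM_at (-0.0036), Mtor 1436267_PM_a_at (0.18) and Rictor 1453775_PM_at (-0.15), 1441753_PM_at (0.016) and 1427583_PM_at (-0.012). The mean of both Mapkap1 probe sets was 0.047, against -0.077 for the brighter. With single arrays left out the sign changed within -0.029 to 0.31 for Mapkap1 1417284_PM_at, -0.16 to 0.041 for Mlst8 1415843_PM_at, and, for Rictor, -0.14 to 0.044 (1441753_PM_at), -0.015 to 0.19 (1427583_PM_at) and -0.10 to 0.18 (1429810_PM_at). The causes were not tested.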
